A study of Mus musculus with 10 samples.

Results

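The genes described here make cholesterol and fatty acids, control that synthesis or export cholesterol. Members were chosen by name from a list of 36 genes, and 34 of them had a probe set named by 1 symbol in the platform's gene table, out of 18193 genes on the array. Acat2 and Nr1h2 were not listed there and have no value here. The 34 genes were measured by 80 probe sets of 45037 tested, and each gene is given by its brightest probe set, the one whose mean over the 10 arrays was highest.

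Messenger RNA was measured in mouse LSK cells, a stem and progenitor population sorted by Sca1 and c-kit and the absence of lineage markers. All cells carried a retroviral HOXB4 transgene, a homeobox factor whose overexpression enlarges stem cell cultures, from a vector that also expresses EGFP. In HOXB4-ER (HOXB4ERT in the sample names) the protein is fused to a tamoxifen-responsive receptor domain and enters the nucleus while 4-hydroxytamoxifen (TMX) is present. HOXB4const is the unmodified, constitutively active protein and served as the control for effects of tamoxifen itself. All groups spent 14 days of expansion in 10 nM TMX, in medium without serum that held mSCF, huFL, huIL-11 and mIL-3, and were sorted for GFP and the LSK markers and kept in TMX for 12 h after the sort. The 10 Affymetrix Mouse Genome 430 2.0 arrays cover 5 conditions with 2 arrays each. HOXB4-ER cells were taken at 1 h in continued TMX, 1 h after its removal and 4 h after its removal, and HOXB4const cells at 1 h in continued TMX or 1 h after its removal. HOXB4-ER cells held in TMX to 4 h were not analysed here, so the 4 h arrays were compared with the 1 h arrays with TMX, and time and withdrawal cannot be told apart in that comparison. Nor were any 4 h samples of HOXB4const. The model is an overexpressed transgene in cultured, mixed transduced cells. No source used here gives the strain, age or sex of the mice. The replicates are labelled biological, but nothing states that replicates 1 and 2 came from separate mice or cultures, so p-values measure only the spread between these arrays.

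Cells build cholesterol from acetyl-CoA through the mevalonate arm, which ends in farnesyl diphosphate, and the sterol arm, which closes the rings and trims the side groups. Srebf1 and Srebf2 encode the SREBP transcription factors, which are held in the endoplasmic reticulum by Scap and the Insig proteins when sterols are plentiful and are released to switch on synthesis genes when sterols run low. Oxysterols that build up in cholesterol-rich cells activate the nuclear receptor LXR, which switches on the exporters Abca1 and Abcg1 and the Srebf1 gene. Dividing blood progenitors need both products for new membrane, and cholesterol efflux is known to restrain their expansion.

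Promoter sequences show which members carry the DNA words of both regulators near their start. RefSeq promoter windows (assembly GRCm38.p6, from 250 bases before to 50 after the start site) were found for 28 of the 36 listed genes. An LXR-type word, a direct repeat of GGTNA with 5 bases of any kind between the copies, searched on both strands like the others, lay in the windows of Fasn, Srebf1 and Abca1, which is 3 of 28 members (10.7%) against 0.818% of 27025 genes. The SREBP word TCACNCCAC lay in the window of Hmgcs1 alone, 1 of 28 members (3.57%) against 1.44% of genes. CCAAT, the word of the partner factor NF-Y, lay in 21 of 28 member windows (75%) against 41.1% of genes, and the E-box CACGTG in 6 of 28 (21.4%) against 8.09%. A match is a description of the letters and not a measured binding site, and no match says only that the letters are absent from the window. The 250 bases before the start site are shown for the 4 genes with an LXR or SREBP word, on the strand of the gene, with the word in capitals, and in none of them did it overlap another word searched. They lie at chr4:53159896-53160145 on the minus strand for Abca1, chr11:60210472-60210721 on the minus strand for Srebf1, chr11:120824548-120824797 on the minus strand for Fasn and chr13:119690101-119690350 on the plus strand for Hmgcs1.
Abca1: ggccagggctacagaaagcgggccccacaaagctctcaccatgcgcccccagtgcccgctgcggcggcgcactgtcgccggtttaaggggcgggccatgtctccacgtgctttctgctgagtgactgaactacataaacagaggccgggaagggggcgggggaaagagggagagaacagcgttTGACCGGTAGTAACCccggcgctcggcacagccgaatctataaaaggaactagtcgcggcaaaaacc
Srebf1: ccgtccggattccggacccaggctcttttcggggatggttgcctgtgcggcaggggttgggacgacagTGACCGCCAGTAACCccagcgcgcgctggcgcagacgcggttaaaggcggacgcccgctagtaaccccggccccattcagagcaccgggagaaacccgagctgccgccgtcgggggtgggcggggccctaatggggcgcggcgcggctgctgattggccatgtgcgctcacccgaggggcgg
Fasn: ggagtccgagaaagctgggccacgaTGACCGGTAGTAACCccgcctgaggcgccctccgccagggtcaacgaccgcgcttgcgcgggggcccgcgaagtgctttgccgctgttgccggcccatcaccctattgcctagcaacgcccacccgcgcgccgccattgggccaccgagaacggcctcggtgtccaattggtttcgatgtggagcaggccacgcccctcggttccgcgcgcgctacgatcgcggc
Hmgcs1: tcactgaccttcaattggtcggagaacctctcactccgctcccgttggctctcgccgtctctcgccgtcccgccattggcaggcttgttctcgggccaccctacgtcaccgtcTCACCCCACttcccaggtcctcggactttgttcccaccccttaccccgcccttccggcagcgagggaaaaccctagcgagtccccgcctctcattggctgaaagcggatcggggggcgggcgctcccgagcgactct
Abca1 and Fasn have the same capital letters, and the word of Srebf1 differs from them in its centre. Srebf1 has windows at other start sites too, and the LXR-type word was absent from those. The readouts of these 4 genes are given with their roles.

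All values are log2 signals scaled to a common array mean, so 1 unit is a doubling, and levels of different genes are not compared because probe sets differ in brightness. All 34 members lay above the median mean level of all probe sets (4.05), 29 of them above 6.39, where the median SD within groups was 0.366. Array medians ran from 3.96 to 5.32 while the trimmed mean was the same on every array. The LSK identity was checked with Kit (8.72 to 10.93) and Cd34 (10.78 to 11.86), which were bright on all 10 arrays, and Ly6a, the gene of Sca1, was not listed in the platform table. Of the other LSK genes Slamf1 read only 3.47 to 5.68 and Flt3 5.70 to 8.11. Some genes of the mast cell and granulocyte lists also read high on all 10 arrays, among them Cpa3 at 11.45 to 12.71, Ms4a2 at 8.67 to 10.93 and Mpo at 10.54 to 13.26. Others of the same lists read lower, such as Tpsb2 (3.26 to 7.26), Gata1 (2.87 to 6.51), Camp (1.14 to 5.49) and Ltf (−0.32 to 5.88). Monocyte and macrophage genes differed with the replicate number: their 12 genes summed to 11780 to 18860 linear signal units on replicate 1 arrays and 1610 to 3636 on replicate 2 arrays. The difference between the 3′ and 5′ Gapdh controls, which reads how complete the amplified transcripts were, was 0.738 to 1.42 on replicate 1 and 1.48 to 3.98 on replicate 2 arrays. In bulk RNA, fewer cells of a type and less RNA per cell cannot be told apart.

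Withdrawal of TMX left the members close to where they were after 1 h. In HOXB4-ER cells 17 of 34 stood higher without TMX and 17 lower, with a median difference of −0.001, beside 0.07 over all genes. Limma, fitted over all 45037 probe sets, called 0 members at an adjusted p under 0.05, and 0% of all probe sets. At an unadjusted p under 0.05 it counted 0 members, against 4.76% of all probe sets. The 34 differences ran from −0.73 to 0.65, with 95% confidence intervals whose median half-width was 1.16 in this fit without a replicate term. A doubling was thus inside the interval of a typical member and its absence is not shown. With the replicate number as a block the median half-width was 0.976, near a doubling. After 4 h, 16 of 34 stood higher, the median difference was −0.01 beside 0.02 over all genes, and limma called 0 members and 0% of probe sets. At an unadjusted p it counted 0 members against 3.35% of probe sets, and the differences ran from −1.87 to 0.99, with 33 of 34 within 1 unit of 0. In HOXB4const cells, the control for tamoxifen itself, 10 of 34 stood higher, the median was −0.10 beside 0.02 over all genes, and limma called 0 members and 0% of probe sets, with 0 members against 4.34% of probe sets at an unadjusted p. These directions depend on the scaling: centring each array on its median put 3, 18 and 2 members higher in the 3 comparisons, because it takes off the difference between the array medians of the groups, 0.39, −0.03 and 0.31 respectively.

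**Figure D1:**
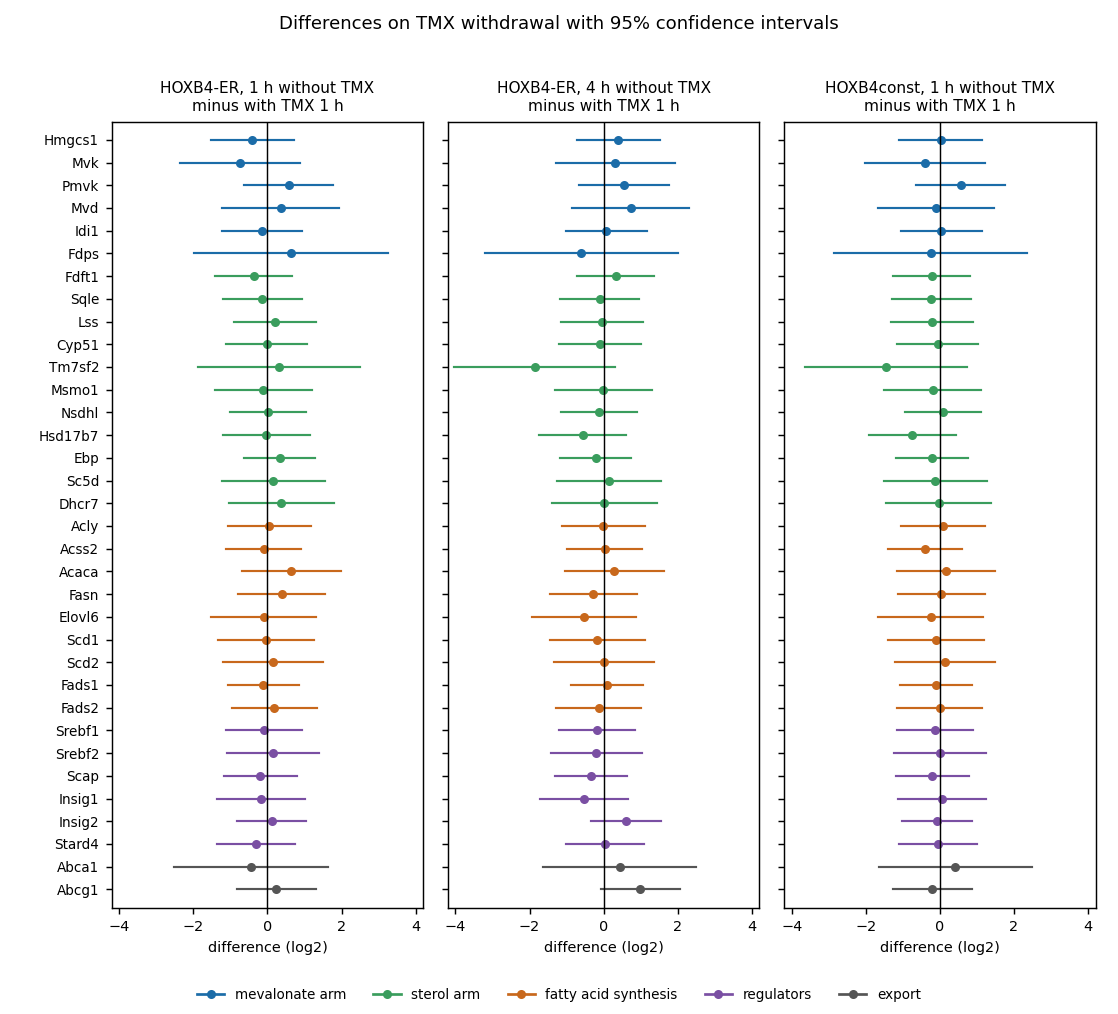
Difference in log2 signal on TMX withdrawal for the 34 members (points, coloured by role) with limma's 95% confidence intervals (lines), in HOXB4-ER cells after 1 h and 4 h and HOXB4const cells after 1 h. The intervals reach a median of 1.16 to either side, and at 4 h Abcg1 lies farthest to the right (0.99) and Tm7sf2 farthest to the left (−1.87).

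The mevalonate arm had the most members higher at 4 h, 5 of 6 with a median difference of 0.36, after 3 of 6 and 0.10 at 1 h and 3 of 6 and −0.04 in HOXB4const cells. None of the 6 passed limma's test, and with the mean of all probe sets of a gene in place of the brightest the 4 h count was 3 of 6 with a median of −0.04. Hmgcs1 makes HMG-CoA, from which mevalonate is formed, and read, as replicate 1 and then 2 in each group, 10.455 and 10.78 in HOXB4-ER cells with TMX, 9.94 and 10.47 after 1 h without it and 11.03 and 10.998 after 4 h. In HOXB4const cells it read 10.37 and 10.55 with TMX and 10.06 and 10.91 without. The 4 h arrays were the 2 highest of the 10 and overlapped no other group, and both HOXB4-ER arrays at 1 h were lower than their partners with TMX.

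The Hmgcs1 difference was −0.41 ± 0.48 (limma's SE, n = 2 arrays a group) at 1 h, 0.40 ± 0.48 at 4 h and 0.02 ± 0.48 in HOXB4const cells. Between 4 h and 1 h without TMX it was 0.81 ± 0.48 (limma, adjusted p = 0.947), or 1.09 within replicate 1 and 0.53 within replicate 2. Its other 4 probe sets gave 1.01, 1.08, −0.07 and −0.70 for the same comparison, so the probe sets of this gene did not move together.

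Mvk and Pmvk phosphorylate mevalonate in turn. Mvk read 5.37 and 5.32 in HOXB4-ER cells with TMX, 3.62 and 5.59 after 1 h without, 5.90 and 5.42 after 4 h, and 6.16 and 6.06 with and 6.10 and 5.33 without TMX in HOXB4const cells. A single array, replicate 1 at 1 h, was low, and without it the 1 h difference of −0.73 ± 0.69 became 0.25. Pmvk read 6.11 and 6.04, 6.64 and 6.64, and 6.95 and 6.29 over the same 3 HOXB4-ER groups, and 6.02 and 6.23 with and 7.23 and 6.14 without TMX in HOXB4const cells. It stood higher without TMX in both replicates of HOXB4-ER cells at both times (0.57 ± 0.51 and 0.55 ± 0.51), and by a like 0.56 ± 0.51 in HOXB4const cells, where replicate 1 alone was higher. Mvd, which decarboxylates the product, read 5.24 and 5.25, 6.08 and 5.12, and 6.60 and 5.35 in HOXB4-ER cells, and 6.16 and 6.22 with and 6.77 and 5.40 without TMX in HOXB4const cells. Its 4 h difference of 0.73 ± 0.67 was 1.36 within replicate 1 and 0.09 within replicate 2.

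Fdps, which makes farnesyl diphosphate, varied more than any other member between arrays of a group. It read 8.72 and 7.01 in HOXB4-ER cells with TMX, 8.72 and 8.26 after 1 h without, 7.97 and 6.54 after 4 h, and 9.08 and 7.095 with and 9.12 and 6.56 without TMX in HOXB4const cells. Replicate 1 was the higher array in all 5 groups. The fit has no replicate term, so this difference enters the errors on withdrawal: 0.63 ± 1.11 at 1 h, −0.60 ± 1.11 at 4 h and −0.25 ± 1.11 in HOXB4const cells. Idi1, the isomerase before it, stayed between 8.94 and 9.67 on all 10 arrays on its brightest probe set. Its other probe set varied more, from 5.76 to 8.82, both read in HOXB4const cells without TMX.

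The sterol arm had 6 of 11 members higher at 1 h (median 0.02), 3 of 11 at 4 h (−0.10) and 1 of 11 in HOXB4const cells (−0.21), and none passed limma's test. The count in HOXB4const cells was 0 of 11 with arrays centred on their medians, and 2 of 11 with quantile normalization or the mean of all probe sets. Sqle, the squalene epoxidase and a rate-limiting step, read 9.25 and 9.73, 9.17 and 9.53, and 9.41 and 9.36 in the 3 HOXB4-ER groups, and 9.23 and 9.66 with and 8.94 and 9.49 without TMX in HOXB4const cells. The groups overlapped, and its differences were −0.14 ± 0.45, −0.11 ± 0.45 and −0.23 ± 0.45 at 1 h, 4 h and in HOXB4const cells.

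Tm7sf2, a sterol reductase, had the widest difference of the members at 4 h and in HOXB4const cells, and 1 array set most of the size at 4 h. It read 5.70 and 5.60 in HOXB4-ER cells with TMX, 6.33 and 5.62 after 1 h without, 5.35 and 2.23 after 4 h, and 6.40 and 6.10 with and 4.71 and 4.86 without TMX in HOXB4const cells. The replicate 2 array at 4 h was far below all others. That array had a Gapdh 3′ minus 5′ difference of 3.47, against 1.74 on the replicate 2 array with TMX. On it 8.17% of probe sets read below 0, against 6.79% there, and the part of RNA quality was not tested. The 4 h difference was −1.87 ± 0.93 (limma, adjusted p = 1.00), −0.36 within replicate 1 and −3.38 within replicate 2, and −0.31 when that array was left out. Against 1 h without TMX it was −2.19 ± 0.93 (limma, adjusted p = 0.878), and −0.63 without that array. In HOXB4const cells both arrays without TMX were below both with it, by 1.69 and 1.23 within the replicates, with a difference of −1.46 ± 0.93 (limma, adjusted p = 1.00).

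Hsd17b7, a sterol keto-reductase, read 5.97 and 6.48, 6.08 and 6.31, and 5.84 and 5.46 in the 3 HOXB4-ER groups, and 6.25 and 6.90 with and 5.44 and 6.22 without TMX in HOXB4const cells. Both 4 h arrays were below all other HOXB4-ER arrays, at −0.57 ± 0.50 against TMX, and in HOXB4const cells the groups with and without TMX did not overlap, at −0.75 ± 0.50. Ebp, the sterol isomerase, read 8.59 and 8.20, 8.74 and 8.71, and 8.19 and 8.17 in HOXB4-ER cells, and 8.78 and 8.62 with and 8.67 and 8.31 without TMX in HOXB4const cells. It stood highest at 1 h and lowest at 4 h among the HOXB4-ER groups, a difference of −0.55 ± 0.41 between the 2 times (limma, adjusted p = 0.965). The remaining sterol genes, Fdft1, Lss, Cyp51, Msmo1, Nsdhl, Sc5d and Dhcr7, differed on withdrawal by −0.37 to 0.37 over the 3 comparisons.

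**Figure D2:**
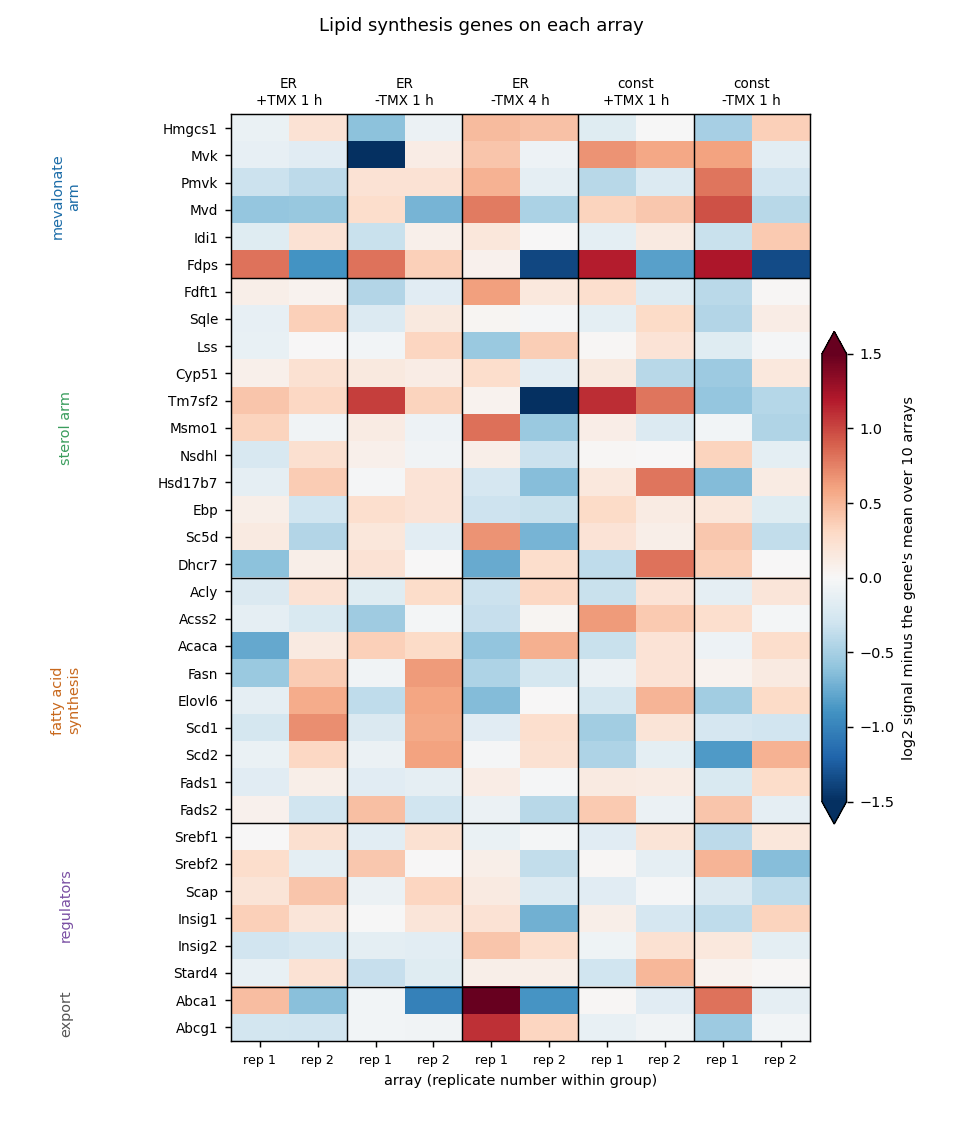
Each member's log2 signal on each of the 10 arrays minus its mean over all arrays (colour, from −1.5 to 1.5), with members in rows by role and arrays in columns by group and replicate. Fdps and Abca1 are high on replicate 1 arrays in most groups, Elovl6 and Acly are high on replicate 2 arrays, and Tm7sf2 is lowest on the replicate 2 array at 4 h.

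Fatty acid synthesis genes divided evenly on withdrawal: 5 of 9 stood higher at 1 h (median 0.05), 4 of 9 at 4 h (−0.01) and 4 of 9 in HOXB4const cells (−0.01), with 0 past limma's test. Fasn, the fatty acid synthase whose promoter carries the LXR-type word, read 8.79 and 9.72, 9.29 and 9.98, and 8.88 and 9.08 in the 3 HOXB4-ER groups, and 9.26 and 9.54 with and 9.39 and 9.48 without TMX in HOXB4const cells. Its differences were 0.38 ± 0.50 at 1 h, −0.28 ± 0.50 at 4 h and 0.03 ± 0.50 in HOXB4const cells, and both 4 h arrays lay below both arrays of 1 h without TMX.

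Scd2, a stearoyl-CoA desaturase, read 11.18 and 11.58, 11.19 and 11.88, and 11.26 and 11.50 in HOXB4-ER cells, and 10.82 and 11.13 with and 10.42 and 11.79 without TMX in HOXB4const cells. The 3 HOXB4-ER groups overlapped, with a 4 h difference of 0.00 ± 0.58, while all HOXB4-ER arrays lay above both HOXB4const arrays with TMX. Acaca, which makes malonyl-CoA, read 7.59 and 8.49, 8.72 and 8.65, and 7.76 and 8.89, and 8.02 and 8.56 with and 8.28 and 8.62 without TMX in HOXB4const cells. It had the smallest unadjusted p of any member at 1 h (0.65 ± 0.57, limma, adjusted p = 1.00), but the mean of its probe sets gave −0.18. Elovl6, the elongase of palmitate, read 8.56 and 9.24, 8.31 and 9.28, and 8.04 and 8.70 in HOXB4-ER cells and 8.43 and 9.20 with and 8.17 and 8.98 without TMX in HOXB4const cells. Both of its 4 h arrays were the lowest of their replicate number, with a 4 h difference of −0.53 ± 0.60. Acss2, which activates acetate, read 7.17 and 7.08, 6.77 and 7.28, and 6.96 and 7.34 in HOXB4-ER cells, and 7.95 and 7.70 with and 7.56 and 7.28 without TMX in HOXB4const cells. It lay below its HOXB4const levels on both HOXB4-ER arrays with TMX.

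Among the regulators 2 of 6 stood higher at 1 h (median −0.14), 2 of 6 at 4 h (−0.19) and 1 of 6 in HOXB4const cells (−0.07). Srebf1 read 8.81 and 9.05, 8.64 and 9.03, and 8.70 and 8.78 in the 3 HOXB4-ER groups, and 8.64 and 9.001 with and 8.41 and 8.97 without TMX in HOXB4const cells. Srebf2 read 7.45 and 7.04, 7.58 and 7.19, and 7.27 and 6.81, and 7.20 and 7.05 with and 7.69 and 6.55 without TMX. Neither SREBP gene moved beyond its error: Srebf1 differed by −0.09 ± 0.44 at 1 h, −0.19 ± 0.44 at 4 h and −0.13 ± 0.44 in HOXB4const cells, and Srebf2 by 0.15 ± 0.52, −0.20 ± 0.52 and 0.00.

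The 2 Insig genes, which hold SREBP back, pointed apart at 4 h. Insig1, itself an SREBP target, read 8.70 and 8.53, 8.34 and 8.53, and 8.56 and 7.62 in HOXB4-ER cells, and 8.43 and 8.10 with and 7.97 and 8.69 without TMX in HOXB4const cells. Its 4 h difference of −0.52 ± 0.51 came mostly from replicate 2 (−0.91, against −0.14 in replicate 1), whose 4 h array had the Gapdh difference of 3.47. Insig2 read 6.46 and 6.51, 6.60 and 6.59, and 7.16 and 6.999 in HOXB4-ER cells, and 6.69 and 6.98 with and 6.90 and 6.61 without TMX in HOXB4const cells. It was the steadiest member within groups (SD 0.143), and the 4 h arrays were the 2 highest of all 10, with 0.70 within replicate 1 and 0.49 within replicate 2. All 3 of its probe sets stood higher at 4 h (0.59, 0.58 and 0.76), but the difference of 0.59 ± 0.40 did not pass (limma, adjusted p = 1.00). The HOXB4const groups of Insig2 overlapped each other.

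Both measured export genes stood higher at 4 h as deposited, centred, quantile normalized or averaged over probe sets, and neither passed. For Abca1 only replicate 1 was higher. Abcg1, which loads cholesterol onto HDL, read 6.94 and 6.92 in HOXB4-ER cells with TMX, 7.17 and 7.15 after 1 h without, 8.31 and 7.53 after 4 h, and 7.10 and 7.16 with and 6.66 and 7.17 without TMX in HOXB4const cells. On this brightest probe set the HOXB4-ER groups did not overlap and stepped from with TMX to 1 h to 4 h in both replicates. At 4 h the difference was 0.99 ± 0.45 (95% confidence interval −0.08 to 2.06, limma, adjusted p = 1.00), which is the smallest unadjusted p of a member in that comparison. It was 1.37 within replicate 1 and 0.61 within replicate 2, and 0.60 without the replicate 1 array at 4 h, and its second probe set gave 0.27. Differences at 1 h were 0.23 ± 0.45 in HOXB4-ER and −0.21 ± 0.45 in HOXB4const cells, and their own difference was 0.44 ± 0.64.

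Abca1, which exports cholesterol to lipid-poor apolipoprotein and carries the LXR-type word, read 6.10 and 5.02, 5.61 and 4.63, and 7.21 and 4.76 in HOXB4-ER cells, and 5.66 and 5.48 with and 6.46 and 5.51 without TMX in HOXB4const cells. The replicate 1 array at 4 h was its highest, while the replicate 2 array at 4 h was below the replicate 2 array with TMX. The 4 h difference was 0.43 ± 0.88, with 1.11 in replicate 1 and −0.25 in replicate 2. Its other probe sets, with mean levels of 3.64 and 2.51, gave 0.82 and −0.83 at 4 h. Of the 12 monocyte and macrophage genes 6 stood higher at 4 h, with a median of −0.06 and a median 95% half-width of 3.75. Their summed linear signal was 15936 and 1611 with TMX and 15173 and 1850 at 4 h. In replicate 1 these genes went both ways: Cd14 read 8.06 with TMX and 9.15 at 4 h, while Mrc1 read 8.02 and 6.77 and Itgam 7.26 and 6.57. In replicate 2 Cd14 read 5.86 with TMX and 5.06 at 4 h. The part of the monocyte and macrophage genes in the difference of the export genes was not tested.

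**Figure D3:**
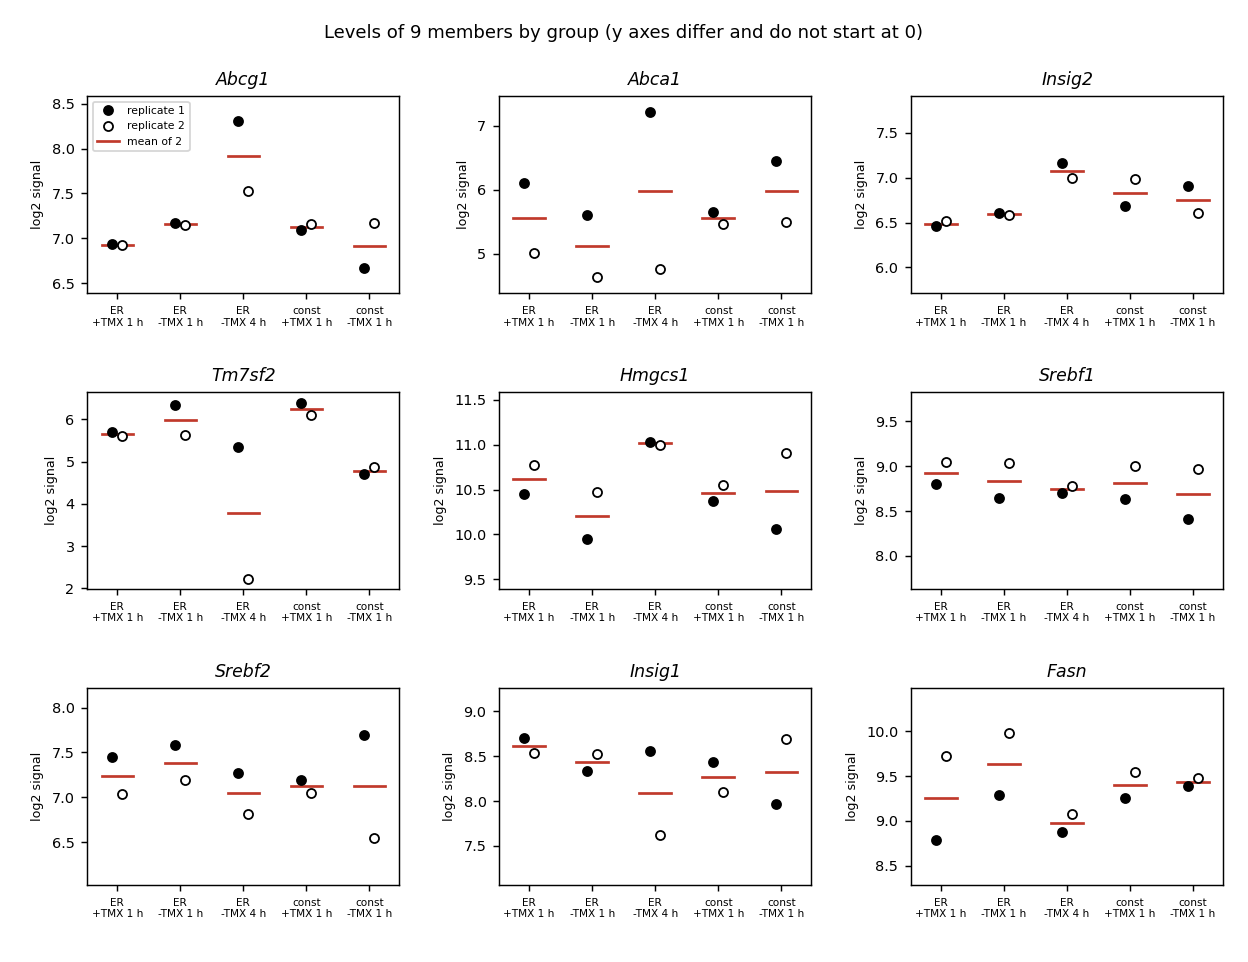
Log2 signal of 9 members on each array by group (filled circles replicate 1, open circles replicate 2, red line the mean of the 2 arrays), on y axes that differ between genes and do not start at 0. Abcg1 and Insig2 are highest at 4 h in HOXB4-ER cells on both arrays, and the 4 h mean of Tm7sf2 is pulled down by 1 array at 2.23.

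Arrays of compared groups failed to overlap for several members, and each share is set beside that of all probe sets. At 1 h, 5 of 34 members lay wholly above (Pmvk, Ebp, Acaca, Insig2 and Abcg1), which is 14.7% of members against 21.1% of all probe sets and 17.2% of those above the median level. Another 3 lay wholly below (Fdft1, Insig1 and Stard4), 8.82% against 11% and 11.5%. At 4 h, 7 lay wholly above (Hmgcs1, Mvk, Pmvk, Mvd, Fdft1, Insig2 and Abcg1), which is 20.6% of members against 14.8% and 14.5%, and 5 wholly below (Tm7sf2, Hsd17b7, Ebp, Srebf1 and Scap), 14.7% against 15.2% and 14%. In HOXB4const cells 0 lay wholly above against 15.8% and 9.61%, and 5 wholly below (Lss, Tm7sf2, Hsd17b7, Acss2 and Scap), 14.7% against 9.17% and 10.4%. With 2 arrays a side such separation was common, and the shares of members are read against those backgrounds. The withdrawal difference had the same sign in both replicates for 23 members at 1 h (67.6%, against 54.7% of all genes), 18 at 4 h (52.9% against 55.7%) and 13 in HOXB4const cells (38.2% against 41.6%).

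The remaining comparisons set the groups against one another. The effect of withdrawal at 1 h in HOXB4-ER minus that in HOXB4const cells was above 0 for 25 of 34 members, with a median of 0.08 beside 0.02 over all genes, and for 17 with arrays centred on their medians. With the mean of all probe sets of a gene it was above 0 for 15 of 34 (median −0.15), and without replicate 1 of HOXB4-ER with TMX for 16 (median −0.06). Limma called 0 members and 0% of probe sets, and 0 members against 3.77% of probe sets at an unadjusted p. The smallest p belonged to Tm7sf2 (1.78 ± 1.31, limma, adjusted p = 1.00), followed by Hsd17b7 (0.72 ± 0.71) and Ebp (0.55 ± 0.58). All 3 are sterol arm enzymes, of which 9 of 11 were above 0, 7 of 11 with centring and 6 of 11 with the mean of all probe sets.

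Between 4 h and 1 h without TMX 13 of 34 stood higher at 4 h (median −0.09, beside −0.06 over all genes), or 28 with centring, and limma called 0 members and 0% of probe sets. The unadjusted count was 1 member, Tm7sf2, against 5.68% of probe sets, and Hmgcs1 and Abcg1 (0.76 ± 0.45) had the next smallest p. Groups did not overlap for 6 members higher at 4 h, against 12.8% of all probe sets and 15.7% of those above the median level, and for 5 lower, against 23.4% and 20.8%. Between HOXB4-ER and HOXB4const cells with TMX 14 of 34 stood higher in HOXB4-ER cells (median −0.05, beside −0.10 over all genes), or 29 with centring, which takes off a difference of −0.42 between the array medians. Without replicate 2 of HOXB4-ER with TMX the count was 9. Limma called 0 members and 0% of probe sets, with 0 members against 4.38% at an unadjusted p. The smallest p values were those of Acss2 (−0.70 ± 0.43), Mvd (−0.95 ± 0.67) and Mvk (−0.77 ± 0.69), each with an adjusted p of 1.00 in limma. On these 3 genes both HOXB4-ER arrays lay below both HOXB4const arrays, as they did for 9 members in all (26.5%, against 22.5% of all probe sets and 17.4% of those above the median level). For 3 members (Scd2, Scap and Insig1) they lay above, against 9.28% and 10.6%.

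Some members read apart by the replicate number. That comparison has 5 arrays a side and a median 95% half-width of 0.617, against 2 a side and 1.16 on withdrawal, so the results are not like for like. With the group as a term beside the replicate number, limma called 0 members and 0% of probe sets. An unadjusted p under 0.05 was found for 3 members, Fdps, Elovl6 and Abca1, which is 8.82% of members against 13.7% of probe sets. Fdps averaged 8.72 ± 0.46 over replicate 1 arrays and 7.09 ± 0.70 over those of replicate 2 (SD, n = 5), a difference of −1.63 ± 0.35 (limma, adjusted p = 0.194) that was negative in 5 of 5 groups. Elovl6 was 8.30 ± 0.21 and 9.08 ± 0.24, higher on replicate 2 in 5 of 5 groups and without overlap (0.78 ± 0.21, limma, adjusted p = 0.247). Abca1 was 6.21 ± 0.66 and 5.08 ± 0.40, lower on replicate 2 in 5 of 5 groups and also without overlap (−1.13 ± 0.37, limma, adjusted p = 0.295).

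Over the 5 arrays of each number, 2 members were wholly higher on replicate 2 (Acly and Elovl6), 5.88% of members against 2.74% of all probe sets and 5.36% of those above the median level. Another 5 were wholly lower (Msmo1, Sc5d, Fads2, Srebf2 and Abca1), 14.7% against 3.76% and 6.44%. Some of these separations were very narrow. The lowest replicate 1 and highest replicate 2 arrays read 9.121 and 9.119 for Msmo1, 7.596 and 7.593 for Fads2, and 7.196 and 7.191 for Srebf2. The other probe sets of Sc5d gave 0.27 and −0.14. The call for Fdps and Elovl6 depended on the model. When probe sets below the median mean level were left out, both passed (limma, adjusted p = 0.0452 and 0.0454), beside 3.77% of the probe sets then tested. With an intensity trend in the prior they passed too (limma, adjusted p = 0.000815 and 0.00455), beside 6.06% of all probe sets. The mean of all probe sets of Elovl6, however, gave −0.14, since its other probe sets stood at −0.10 and −1.11.

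**Figure D4:**
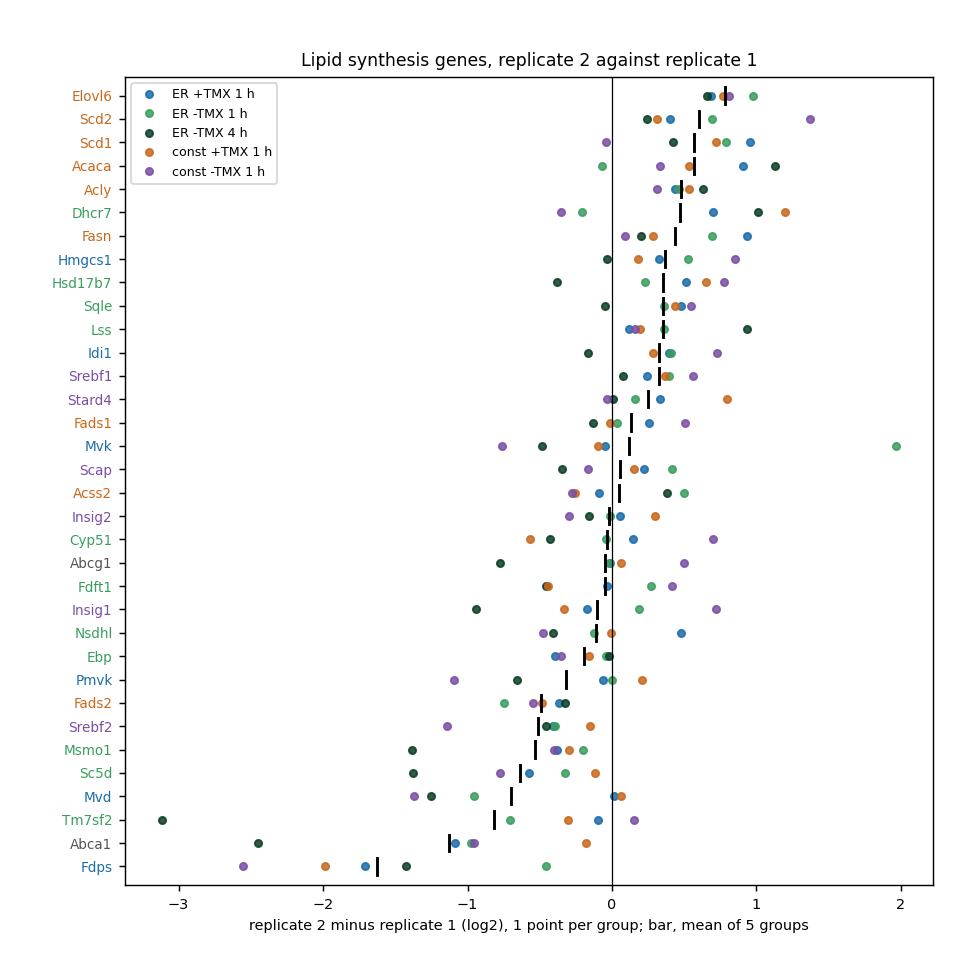
Replicate 2 minus replicate 1 in log2 signal for the 34 members, sorted by their mean (bars) over the 5 groups (points). Fdps is at the low end (−1.63) and Elovl6 at the high end (0.78), and the points of both lie on 1 side of 0 in all 5 groups.

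By role, fatty acid genes stood higher on replicate 2 for 8 of 9 (median 0.48), a count that was 7 of 9 with quantile normalization and 5 of 9 (median 0.02) with the mean of all probe sets. Their summed linear signal was 5604 to 6584 on replicate 1 and 7543 to 9328 on replicate 2 arrays, without overlap. Acly, which makes cytosolic acetyl-CoA from citrate, was 10.49 ± 0.09 and 10.97 ± 0.05 (SD, n = 5), Scd2 10.97 ± 0.35 and 11.58 ± 0.29, and Fasn 9.12 ± 0.27 and 9.56 ± 0.33. Fads2 alone of the 9 was lower (−0.49 ± 0.21). The mevalonate arm was divided, 3 of 6 higher, as were the regulators, with Srebf1 higher by 0.33 ± 0.22 and Srebf2 lower at −0.51 ± 0.25, neither past the test. Sterol arm genes stood higher for 4 of 11 (median −0.05). Over all 34 members 18 stood higher, the median was 0.05 and that of all genes −0.03.

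Probe sets of 1 gene disagreed on the replicate difference, which limits what the brightest probe set shows. Scd2 gave 0.60 on its brightest probe set and −1.96 and −0.40 on the others, and Hmgcs1 gave 0.37, 0.26 and 0.34 but −0.77 and −1.94 on 2 more. Acly gave 0.48, 0.63 and −1.46 on its 3 probe sets above the median level. Of the 46 probe sets that were not the brightest of their gene, 27 pointed the way of the brightest one. The Gapdh 3′ minus 5′ difference was higher on the replicate 2 array in all 5 groups, and its part in these differences was not tested.

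**Figure D5:**
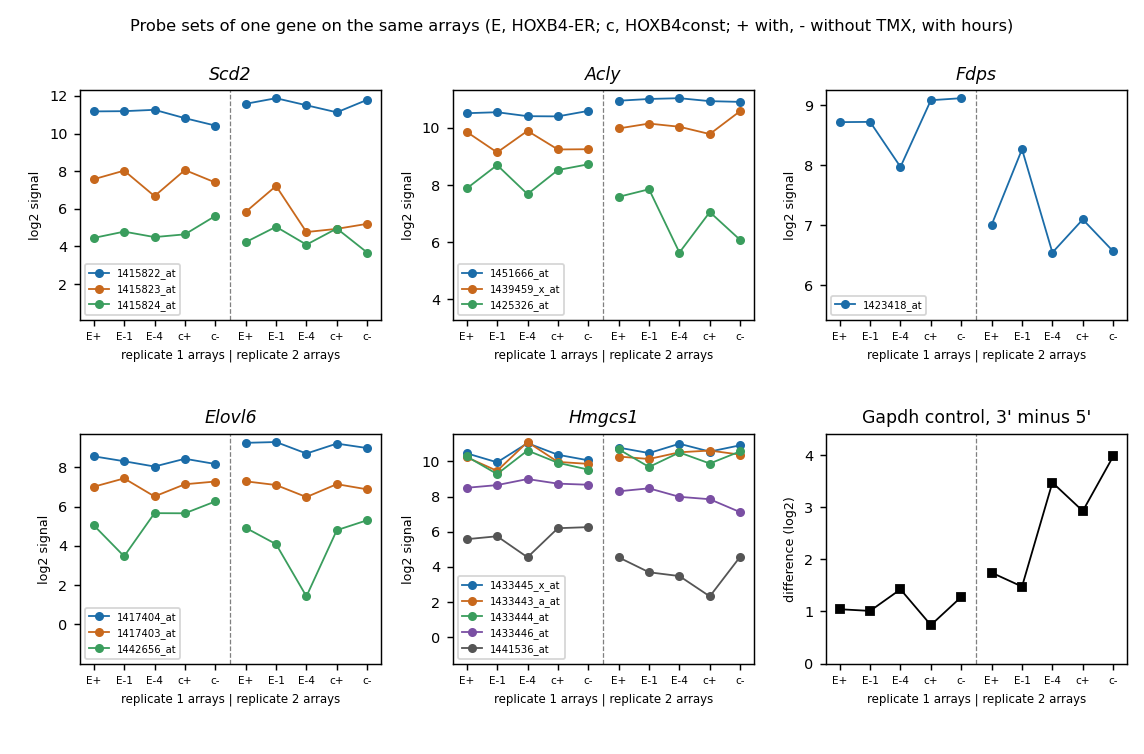
Log2 signal of the probe sets of Scd2, Acly, Fdps, Elovl6 and Hmgcs1 that lie above the median level, and the Gapdh 3′ minus 5′ difference, on the 5 replicate 1 arrays (left of each panel) and the 5 replicate 2 arrays (right). The brightest Scd2 probe set is higher on the right while another is lower there, and the Gapdh difference is 0.738 to 1.42 on the left and 1.48 to 3.98 on the right.

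Marker genes of other cells moved with the replicate number. All 12 monocyte and macrophage genes were lower on replicate 2 arrays (median −2.50), among them Csf1r (−3.36), the receptor of macrophage growth factor, and Lyz2 (−3.16), lysozyme. Averaged over the 5 groups, all 9 measured granulocyte genes (median −2.25) and all 9 dendritic genes (−2.22) were lower as well, while 8 of 10 LSK genes (0.58) and 8 of 9 proliferation genes (0.40) stood higher. The fall in the median of the granulocyte list was mainly in HOXB4-ER cells. With TMX the list's median deviation from the mean over all arrays was 2.37 on replicate 1 and −1.11 on replicate 2, against −0.62 and −0.94 in HOXB4const cells. For dendritic genes it was 2.305 and −1.47, against 0.32 and −1.36. Some granulocyte genes went the other way. In HOXB4-ER cells Prtn3 was higher on replicate 2 with TMX (11.07 and 11.19) and without it at 1 h (11.19 and 11.42) and 4 h (10.93 and 11.03). Mpo was higher there at 4 h (12.48 and 12.84) and Camp at 1 h without TMX (1.14 and 4.02). Ngp rose in HOXB4const cells with TMX, from 5.19 to 5.62. Of the mast cell and basophil, lymphoid and erythroid markers 4 of 8, 7 of 9 and 3 of 6 stood lower. The part of these cells in the lower Abca1 and Fdps or the higher Elovl6 was not tested.

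Other genes of the pathways, from lists outside the 36, gave 0 calls in any of the 7 comparisons in limma. Among 17 other SREBP target and sterol genes 7 stood higher at 1 h (median −0.03) and 5 at 4 h (−0.03). Among 29 other fatty acid and glycerolipid genes 11 stood higher at 1 h (−0.03) and 14 at 4 h (−0.05), and among 16 other LXR genes 10 (0.06) and 9 (0.04). The smallest p of these at 4 h belonged to Nr1h4, the bile acid receptor (3.19 ± 0.81, limma, adjusted p = 1.00), and Mlxipl (2.57 ± 0.99), both with mean levels below the median of all probe sets, and Dgat1, which makes triglyceride (0.85 ± 0.47). On replicate 2 arrays 12 of the 16 other LXR genes stood lower (median −0.65), led by Pltp, the phospholipid transfer protein (−2.30 ± 0.30, limma, adjusted p = 0.148), and Lpl, lipoprotein lipase (−3.59 ± 0.66, adjusted p = 0.166), the same direction as Abca1. Both are also known from macrophages, whose markers were lower on the same arrays, and the part of such cells was not tested.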

How the data were processed

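The deposited values are log2 signals, 1 for each of 45101 probe sets on each of 10 arrays. GCOS and RMA appear in the submitters' processing notes, with no role given. With 2% trimmed from either end, each array's mean linear signal was 100, and quantiles differed, so the values were taken as scaled signals and not normalized again. Array number and brightness limit precision; detection calls were not used.

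The 64 control probe sets were left out. The platform table gives 1 symbol for 34945 of the rest, several for 932 and none for 9160. The model was limma 3.58.1 (R 4.3.3) with 5 group means over 10 arrays, empirical Bayes without a trend (5 residual and 2.21 prior degrees of freedom), two-sided tests, and Benjamini-Hochberg adjustment over all probe sets within each of 7 comparisons at a threshold of 0.05. The fit was run on simulated data with noise drawn separately for each array. Replicate differences shared between groups were not part of that run. Replicate 2 was compared with replicate 1 with group as a term. Differences between replicates correlated between groups in 10 of 10 pairs (0.21 to 0.527, median 0.314, limit 0.1). Populations were split between treatments per the labels' protocols, so the numbers may pair the samples of a construct. What the numbers stand for is not stated. The errors given for withdrawal nonetheless come from the fit without a replicate term. Adding the replicate block narrowed the members' median 95% half-width there from 1.16 to 0.976.

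Members and lists were chosen with earlier results of these data known. Values on all arrays are given for the 3 members with the smallest p in each comparison and for Srebf1, Srebf2, Insig1, Hmgcs1, Sqle, Fasn, Scd2 and Abca1. Further members are named where arrays did not overlap, where probe sets disagreed or beside a role's count, chosen after their values were seen. Alternatives were array centring, quantile normalization, a floor, leaving out dim probe sets, an intensity trend, array weights, a replicate block, averaging each gene's probe sets and leaving out each array.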

Additional observations from a re-analysis of the deposited data

Results flagged for a closer look

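Within each replicate number, the 5 arrays of every member were searched for an array far from the other 4 (Dixon's 95% criterion). Of 68 such sets 4 had one, and chance gives about 1 in 20. Cyp51, a sterol demethylase, read 7.993 on the replicate 1 array of HOXB4const cells without TMX, where the other replicate 1 arrays read 8.615 to 8.804. Scd1, a desaturase, read 7.084 on the replicate 1 array of HOXB4const cells with TMX, against a nearest value of 7.35. Mvd read 6.223 on the replicate 2 array of HOXB4const cells with TMX, against a nearest value of 5.403. Srebf1 read 8.779 on the replicate 2 array of HOXB4-ER cells at 4 h, the lowest of its replicate number, against a nearest value of 8.971.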

How the results depend on the processing

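No member was called on withdrawal, between constructs or between times under any of the 19 alternatives. For the replicate numbers, 2 members were called with dim probe sets left out (850 probe sets) and 2 with an intensity trend (2728). With the replicate block 0 members were called in the 6 comparisons (smallest adjusted p in limma 0.677, Tm7sf2 between 4 h and 1 h), and it changed no call. Without the group term, which is no replicate block here, 0 members were called for the replicate numbers and Fdps had an adjusted p of 0.0917 in limma. The block with a trend, chosen after seeing the data, called 0 members (smallest 0.419).

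Member medians moved with array centring to −0.387 (HOXB4-ER, 1 h), −0.412 (HOXB4const), 0.326 (4 h minus 1 h), 0.368 (HOXB4-ER minus HOXB4const) and 0.376 (replicates), with quantile normalization to 0.0486 (1 h), and with the mean of all probe sets to −0.125 (1 h), −0.148 (the difference of withdrawal effects) and −0.156 (replicates). Leaving out 1 array gave medians of −0.0700 to 0.0772 (1 h), −0.112 to 0.127 (4 h), −0.122 to −0.0724 (HOXB4const), −0.0569 to 0.211 (difference of effects), −0.134 to 0.0411 (4 h minus 1 h), −0.169 to −0.000621 (HOXB4-ER minus HOXB4const) and −0.0345 to 0.145 (replicates), with 0 members called. Of 396 values of named members under alternatives 389 kept direction and side of the threshold and 4 passed it. The other 3 turned: Acaca at 1 h (−0.18) and Elovl6 between replicates (−0.14) with the mean of probe sets, and Mvk at 1 h, which ran from −1.717 to 0.25 as 1 array was left out, the latter without replicate 1 of 1 h without TMX. The causes were not tested. With 2 arrays a group the median 95% half-width on withdrawal was 1.16 log2 units in the main fit, 0.976 with the replicate block and 0.623 with the block and a trend. This width belongs to an unadjusted p of 0.05. Smaller differences were not detectable for a typical member in the main fit, and a call after adjustment needs larger ones. Tm7sf2, at −2.19 between 4 h and 1 h without TMX, did not pass (limma, adjusted p = 0.878).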
